A study of Mus musculus with 61 samples.

Results

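The genes described here are the mouse genes whose symbols begin with Hist1h, Hist2h, Hist3h or Hist4h, the clustered replication-dependent histone genes. They were taken by symbol alone from the 18396 genes of the deposited table, which gave 50 members, and the rule uses no measured value. The 50 comprised 6 H1, 15 H2A, 12 H2B, 6 H3 and 11 H4 genes, and each had reads in at least 1 of the 61 libraries. On the mouse assembly mm9, 40 members lay on chromosome 13 within 2.22 Mb (chr13:21808281-24026720), 7 lay on chromosome 3 within 0.0492 Mb and 3 lay on chromosome 11.

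The study sequenced RNA of mice and mouse embryonic stem cells (mESCs) with altered ZFP708, a KRAB zinc-finger protein made in oocytes. Wild-type (WT) and ZFP708 knockout (KO) samples were single germinal vesicle (GV) oocytes (7 WT, 7 KO), single zygotes (7 WT, 7 KO), single 2-cell embryos (7 WT, 8 KO), pools of 10 blastocysts (3 WT, 3 KO) and blastocyst-derived mESCs (3 WT, 3 KO). The labels give LIF and serum as the culture of the mESCs, and the methods of the paper give 2i medium for deriving the lines. KO oocytes and embryos are given as maternal null. For embryos this means, in the scheme of the paper, KO mothers mated with WT fathers. KO mESCs lacked both maternal and zygotic ZFP708. The KO allele carries a short frameshift deletion in the KRAB-coding region, and its transcript is still made, so the RNA level of *Zfp708* does not check the KO labels. E14 cells, an established mESC line, that overexpressed FLAG-tagged ZFP708 (OE) were set beside control E14 cells labelled wild type (3 libraries each). *Zfp708* was at 6.35, 6.63 and 7.03 normalized counts in the control libraries and at 722, 708 and 530 in the OE libraries, as the labels say. OE cells had been selected with puromycin and sorted for GFP, and the sources do not say if the control cells were treated likewise, so these steps and ZFP708 cannot be told apart. The number of mothers, litters and separate cultures is not stated either, and p-values measure only the spread between these samples.

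Replication-dependent histone genes supply most of the histones that package newly copied DNA, and in dividing cells their mRNA accumulates in S phase. Their transcripts, usually made from genes without introns, are the animal mRNAs that end in a conserved stem-loop, bound by the stem-loop binding protein SLBP, in place of a poly(A) tail. Some of these genes also give polyadenylated transcripts, which end downstream of the stem-loop, for example in cells that have left the cell cycle. In the oocyte histone mRNA is stored for the first embryonic divisions.

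What the libraries could capture therefore bears on every value. For single oocytes and early embryos the protocol primed reverse transcription with oligo(dT) and amplified the cDNA, while mESC libraries were made from poly(A)-selected RNA. How the blastocyst libraries were prepared is not described in the sources used here. Values below are levels of the histone transcripts these protocols caught. The pool of transcripts without a tail was not measured in oocytes, early embryos and mESCs, and for blastocysts it is not known if it was. Levels set across oocytes and embryos, blastocysts and mESCs are a description only. Changes are relative to the other genes of each library, and for whole embryos and cells fewer cells and less RNA per cell cannot be told apart.

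The stem-loop after the stop codon is shown for the members whose values carry the results, because it is the feature by which tail-less histone mRNA is made. A match to the histone stem-loop consensus was sought on the sense strand within 200 bases after the stop codon, and was found in 45 of the 48 members with an annotated coding sequence (93.8%) against 64 of 21930 protein-coding genes (0.292%). The exceptions were *Hist1h2an*, *Hist1h2bp* and *Hist2h2be*. Capitals mark the stem-loop, sequences are the sense strand in mm9, and plus or minus gives the strand of the gene.
Hist1h2bc, chr13:23776511-23776536, plus: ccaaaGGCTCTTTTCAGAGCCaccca
Hist1h1a, chr13:23856256-23856281, plus: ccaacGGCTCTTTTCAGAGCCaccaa
Hist1h2aa, chr13:24026755-24026780, plus: aaaaaGGCTCTTTTCAGAGCCacctt
Hist1h2ba, chr13:24025594-24025619, minus: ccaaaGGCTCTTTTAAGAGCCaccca
Hist1h2ae, chr13:23662532-23662557, minus: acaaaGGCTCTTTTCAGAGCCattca
Hist1h1e, chr13:23713646-23713671, minus: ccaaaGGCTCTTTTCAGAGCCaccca
Hist1h4d, chr13:23673814-23673839, plus: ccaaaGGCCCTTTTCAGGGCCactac
Hist1h4i, chr13:22132830-22132855, minus: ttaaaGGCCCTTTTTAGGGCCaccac

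The same stem-loop bases as in *Hist1h2bc* were found in 26 members, and 7 more had the same stem with the loop of *Hist1h2ba*, and 1 had the same stem with another loop. The 11 H4 genes carried other stems, and the bases shown for *Hist1h4d* were found in 6 of them. The stem-loop lay whole within an annotated exon in 34 members, in part in 2 and outside any annotated exon in 9. For 15 members the annotated gene ran over 100 bases past the stem-loop.

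The most abundant member in oocytes, *Hist1h2bc*, is one of 3 members annotated with more than 1 exon. Its first exon (chr13:23776068-23776490) ends 9 bases after the stop codon, an intron of 7554 bases follows, and the second exon (chr13:23784045-23784357) has 313 bases. The stem-loop shown above, 34 bases after the stop codon, lies inside that intron. The end of the first exon is shown with the first bases of the intron, the first pair of them in capitals.
Hist1h2bc exon end, chr13:23776479-23776498, plus: tgatcctgccaaGTaagcct

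AATAAA, the commonest poly(A) signal, was present in the last 50 annotated bases of 10 of 48 coding members (20.8%), against 53% of protein-coding genes. It is shown in capitals for 4 of the members described below.
Hist1h2bc, chr13:23784321-23784346, plus: atgtatatatAATAAAtgtcatgtaa
Hist1h1c, chr13:23832201-23832226, plus: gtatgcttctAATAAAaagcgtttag
Hist2h2be, chr3:96027630-96027655, plus: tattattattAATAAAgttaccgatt
Hist1h2ae, chr13:23662398-23662423, minus: cagcttctccAATAAAtgggtcaatt

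Members resemble each other so closely that 44 of 50 had at least 1 stretch of 75 bases, the read length, with an exact copy elsewhere in mm9, and in 16 members over 50% of such stretches had one. The share was 0% for *Hist1h1a*, *Hist1h1b*, *Hist1h2aa* and *Hist2h2be*, 6.66% for *Hist1h1c*, 12.2% for *Hist1h4d*, 15.6% for *Hist1h1e*, 34.4% for *Hist1h2ae*, 49.7% for *Hist1h2bc* and 100% for *Hist2h2aa1*. By default the counting tool leaves out reads that align to several places, so values of members with many copies are uncertain. *Hist1h2ac*, *Hist1h2be* and *Hist3h2a* also overlap another gene on their own strand (*5S_rRNA*, *Gm11398* and *Trim17*), and their values cannot be separated from those genes everywhere.

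Libraries of oocytes, zygotes and 2-cell embryos held 2486334 to 4844699 reads counted in genes, so that 1 read was worth 0.208 to 0.397 normalized counts, and those of blastocysts and mESCs held 12469548 to 19596785, with 1 read worth 0.0441 to 0.0728. Marker genes set broad kinds of sample apart as labelled. The summed level of 5 oocyte markers was at least 12212 in every GV and zygote library. That of 5 trophectoderm markers was at least 2433 in every blastocyst library. That of 5 pluripotency markers was at least 2339 in every mESC and E14 library. These lists did not separate GV oocytes from zygotes, or mESCs from E14 cells. The 2-cell KO libraries stood apart. The summed level of 8 granulosa and cumulus markers (genes of the cells that surround the oocyte) was 75.3 to 13070 in KO 2-cell libraries with a median of 770, and 16.7 to 68.7 in WT ones, where 6 of the 8 markers averaged under 1. It was highest in KO libraries 2 (6492) and 7 (13070), in which the 3 measured 2-cell markers summed to 21.8 and 0, against 19.2 to 426 in WT libraries, and 8 fibroblast markers summed to 302 and 534. Results on 2-cell embryos are therefore given with and without KO libraries 2 and 7. KO 2-cell libraries 7 and 8 share a replicate number in their labels and were treated as separate.

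Few histone genes dominated each stage. In GV oocytes 3 members averaged at least 10 normalized counts in both WT and KO libraries, namely *Hist1h2bc*, *Hist1h1a* and *Hist1h2aa*, and *Hist1h2bc* alone made up 72.8% of the summed member value. In blastocysts all 50 members had a mean above 0 in WT and in KO. That count depends on depth, and blastocyst libraries were deeper than those of oocytes, zygotes and 2-cell embryos. At a depth like that of blastocysts, 43 members were above 0 in WT mESCs and 44 in control E14 cells. Of the 50, 27 had their highest mean in blastocysts. Of the others, 2-cell embryos accounted for 9, GV oocytes for 8, zygotes for 5, E14 cells for 1 and the other mESCs for none. These ranks took WT and KO together, with KO 2-cell libraries 2 and 7. Of the 9, *Hist1h1c* and *Hist2h2ac* had WT means of 1.15 and 0.429 in 2-cell embryos and 5.64 and 1.75 in blastocysts. *Hist1h4c* had WT means of 8.36 in 2-cell embryos and 1.81 in blastocysts. The mean summed member value was 268 ± 74.4 (SD, n = 7) in WT oocytes, 153 ± 24.5 (n = 7) in WT zygotes, 71.5 ± 24.8 (n = 7) in WT 2-cell embryos, 227 ± 77.1 (n = 3) in WT blastocysts, 15.4 ± 0.486 (n = 3) in WT mESCs and 12.6 ± 0.714 (n = 3) in control E14 cells. The mESC and E14 libraries, made from poly(A)-selected RNA, thus held the lowest sums, and no member averaged 10 there.

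**Figure D1:**
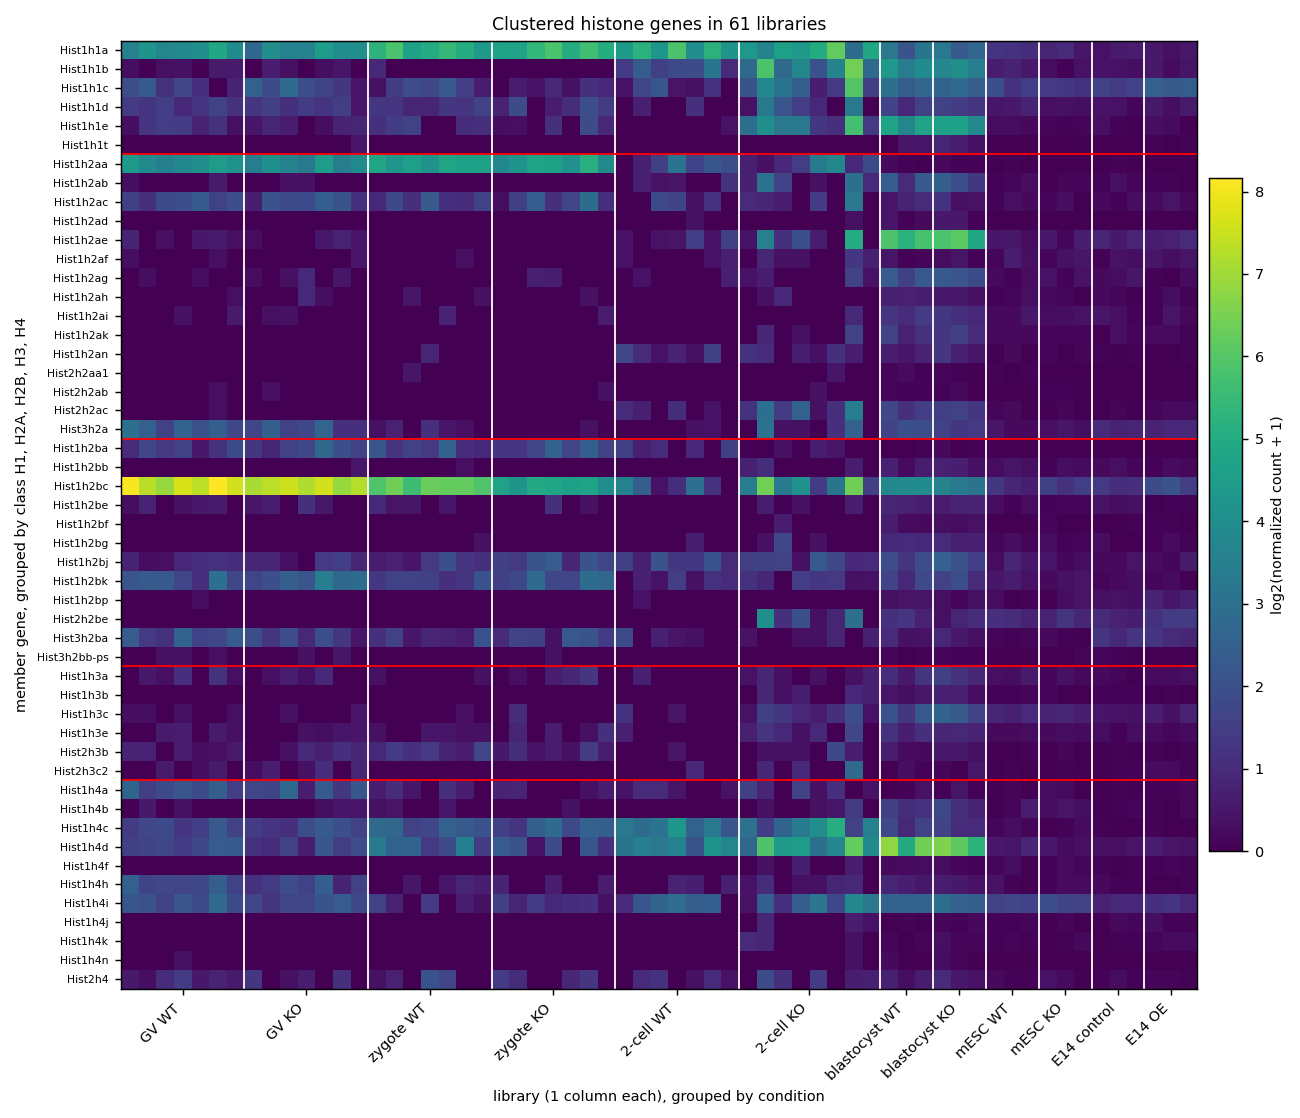
Level of each of the 50 members (rows, grouped by histone class between red lines) in each of the 61 libraries (columns, grouped by condition between white lines), as log2(normalized count + 1) on the colour scale. *Hist1h2bc* is brightest in GV oocytes, *Hist1h4d* and *Hist1h2ae* are brightest in blastocysts, and the mESC and E14 columns are dark throughout.

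Core histone H2B gave most of the oocyte signal. The H2B genes held 76.9% ± 2.97 (SD, n = 7) of the summed member value in WT oocytes, 49% ± 4.35 (n = 7) in WT zygotes, 12.2% ± 8.73 (n = 7) in WT 2-cell embryos and 10.6% ± 3.49 (n = 3) in WT blastocysts. *Hist1h2bc* was in WT libraries at 117 to 285 (median 193) in oocytes, 48.9 to 83.6 (median 72.3) in zygotes and 0 to 10.9 (median 1.28) in 2-cell embryos. It was at 13.0, 14.3 and 14.3 in WT blastocysts, at 1.47, 0.856 and 0.604 in WT mESCs and at 1.59, 1.09 and 1.16 in control E14 cells. In that order GV oocytes, zygotes, blastocysts and 2-cell embryos did not overlap, while the 2-cell range covered both kinds of mESCs. *Hist1h2ba*, a variant H2B gene known from the testis, had a mean of 2.17 ± 1.47 (n = 7) in WT zygotes and had no reads in any mESC or E14 library.

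Linker histone H1 was led before the blastocyst by *Hist1h1a*, which encodes an H1 subtype. *Hist1h1a* was at 10.7 to 28.6 (median 14.7) in WT oocytes, 19.8 to 57.1 (median 31.9) in WT zygotes and 14.9 to 57.9 (median 20.6) in WT 2-cell embryos. It was at 8.59, 3.38 and 7.98 in WT blastocysts and at 1.32, 1.28 and 1.10 in WT mESCs. The ranges of oocytes, zygotes and 2-cell embryos overlapped one another, and those of blastocysts and mESCs lay below all of them. Other H1 genes followed another order: *Hist1h1b* and *Hist1h1e* averaged 14.6 and 20.9 in WT blastocysts and 0.125 and 1.01 in WT zygotes. Per kilobase of annotated exon, *Hist1h1a* led the H1 class in 2-cell embryos at 37.2, with *Hist1h1b* next at 17.9 (means of WT and KO). *Hist1h1e* led it in blastocysts at 27.8. The 2-cell values take in KO libraries 2 and 7. Before division by length *Hist1h1b* averaged 3.12 in WT and 23.4 in KO 2-cell embryos, and 7.57 in KO without those libraries.

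Among H2A genes the leader also changed with stage. *Hist1h2aa*, a variant H2A gene known from the testis, lies 305 bases from *Hist1h2ba* in divergent orientation. It was at 10.4 to 21.2 (median 15.5) in WT oocytes, 16.8 to 27.7 (median 23.7) in WT zygotes and 0 to 7.55 (median 2.12) in WT 2-cell embryos, and its mean was under 0.1 in both groups of blastocysts, of mESCs and of E14 cells. *Hist1h2ae*, a canonical H2A gene, had no reads in any of the 14 zygotes and was at 57.4, 36.1 and 53.6 in WT blastocysts. Per kilobase, as means of WT and KO, *Hist1h2aa* led the H2A class at 36.9 in oocytes, 55.6 in zygotes and 8.02 in 2-cell embryos, and *Hist1h2ae* led it at 71.1 in blastocysts.

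The H4 genes held a larger share in the stages where H2B held a smaller one. They held 5.73% ± 0.89 (SD, n = 7) of the summed member value in WT oocytes, 7.54% ± 2.62 (n = 7) in WT zygotes, 32.5% ± 4.79 (n = 7) in WT 2-cell embryos and 35.5% ± 7.33 (n = 3) in WT blastocysts. *Hist1h4d* was at 1.71 to 4.09 (median 2.34) in WT oocytes, 1.56 to 10.4 (median 4.82) in WT zygotes, 3.34 to 17.2 (median 10.3) in WT 2-cell embryos and at 111, 30.9 and 82.6 in WT blastocysts. Its ranges overlapped from each stage to the next up to the 2-cell embryo, and the blastocyst values lay above all of them. Per kilobase *Hist1h4d* was the highest of all members in blastocysts, at 181. *Hist1h4d*, *Hist1h2ae* and *Hist1h1e* lie within 52 kb of chromosome 13 (chr13:23662386-23714371), a stretch that holds 7 members. In WT mESCs *Hist1h4i* had the highest mean of the members, 2.15 ± 0.149 (n = 3).

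**Figure D2:**
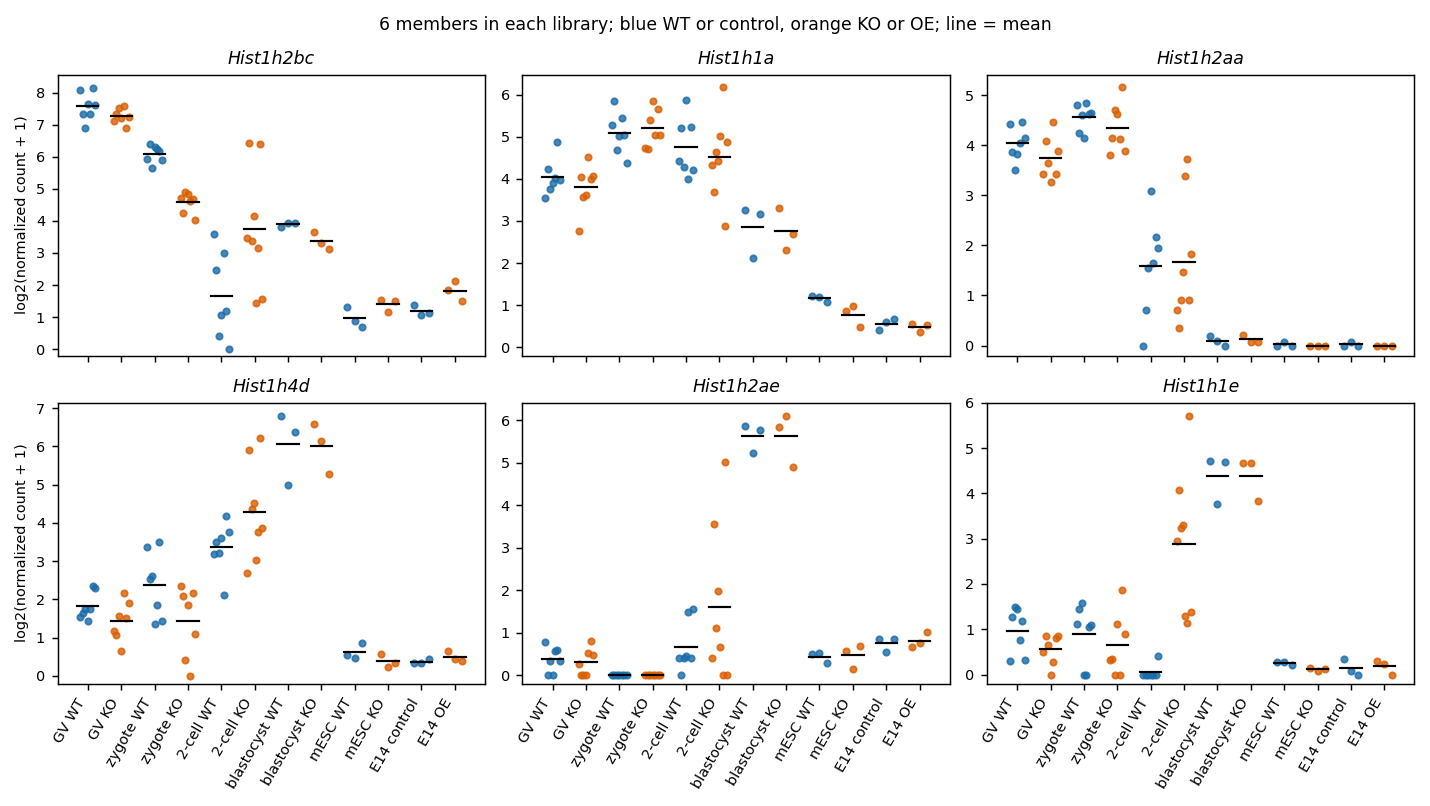
log2(normalized count + 1) of 6 members in each library (points, blue for WT or control and orange for KO or OE) by condition, with the mean of each condition as a line. *Hist1h2bc* and *Hist1h2aa* are highest before the 2-cell stage, *Hist1h4d*, *Hist1h2ae* and *Hist1h1e* are highest in blastocysts, and KO 2-cell embryos are the most spread out.

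Histone H3 was the least represented class. The H3 genes held 0.569% ± 0.263 (SD, n = 7) of the summed value in WT oocytes, 1.1% ± 0.556 (n = 7) in WT zygotes, 0.909% ± 1.16 (n = 7) in WT 2-cell embryos, 2.43% ± 0.331 (n = 3) in WT blastocysts and 9.34% ± 2.61 (n = 3) in WT mESCs. *Hist1h3c* had the highest value per kilobase of the H3 class over all conditions, 1.43, against 57.2 for *Hist1h2bc* of the H2B class, 40.7 for *Hist1h4d* of the H4 class, 19.4 for *Hist1h1a* of the H1 class and 16.8 for *Hist1h2aa* of the H2A class.

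**Figure D3:**
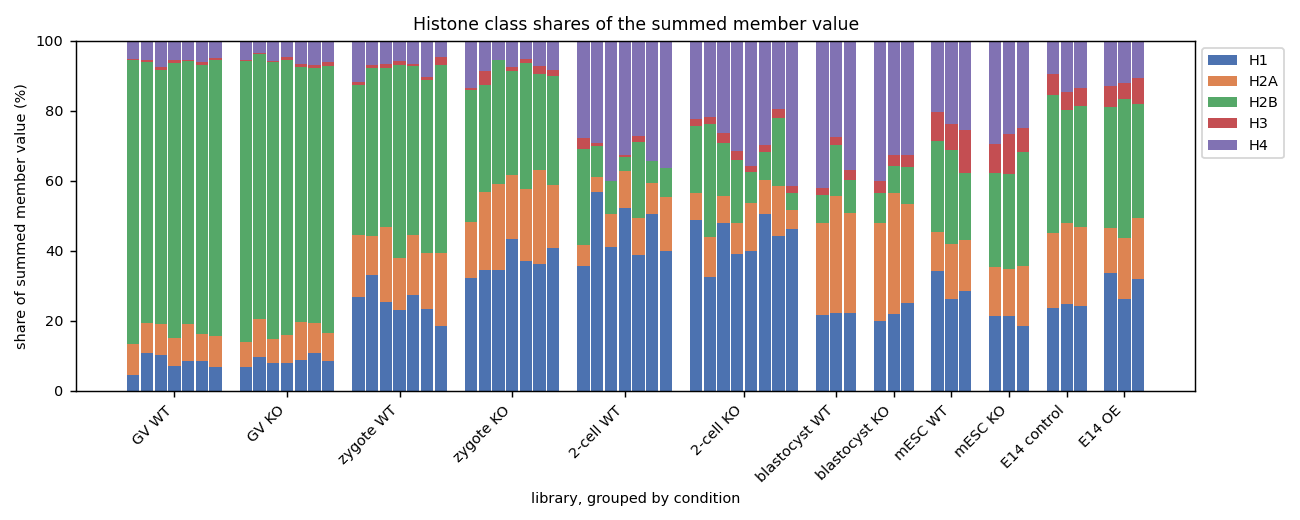
Share of the summed member value (percent) taken by H1, H2A, H2B, H3 and H4 genes in each library (1 bar each, grouped by condition). H2B fills 76.9% of the bars of WT oocytes on average and 12.2% in WT 2-cell embryos, where H1 and H4 fill 45% and 32.5%.

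The kind of annotated end differed between stages as well. The 18 members that are annotated over 100 bases past the stem-loop or lack one took 80.8% of the summed member value of GV oocytes and 75.5% of that of E14 cells, as means of the 2 groups of each kind. The share was 60.5% for mESCs, 42.2% for zygotes, 37.9% for blastocysts and 30.3% for 2-cell embryos. In oocytes that share was mainly *Hist1h2bc*, and in blastocysts mainly *Hist1h2ae*. Of the 3 members highest in E14 cells, *Hist1h1c* and *Hist1h2bc* are annotated past the stem-loop and *Hist2h2be* lacks a match, and all carry AATAAA at the annotated end.

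From GV oocyte to zygote, *Hist1h2bc* was lower and *Hist1h1a* and *Hist1h2aa* were higher in both genotypes. Members were tested with limma on log2(normalized count + 1) where the number of libraries that reached a normalized count of 1 was no lower than the size of the smaller group, and calls were made at an adjusted p under 0.05 over all genes tested (Benjamini-Hochberg). In WT, 2 of 17 members tested were higher and 6 were lower in zygotes, where 32.3% of all genes tested were higher and 32.7% lower, so that the count of lower members lay near the background. Of the 17, 5 had groups without overlap, beside 35.6% of all genes. Quantile normalization, which moved the median of all genes from 0.02 to 0.27, gave 6 higher and 5 lower members. *Hist1h2bc*, with the values given above, did not overlap between the stages and had a log2 change of -1.49 (SE 0.17, adjusted p = 1.5e-07 in limma). *Hist3h2a*, an H2A gene on chromosome 11, was at 2.08 to 7.12 in WT oocytes and 0 to 1.17 in WT zygotes (-1.84, SE 0.27, adjusted p = 4.48e-06). The H4 genes *Hist1h4h*, *Hist1h4a* and *Hist1h4i* were also lower, by log2 changes of -1.57, -1.44 and -1.39, as was *Hist3h2ba* by -0.81. These genes and *Hist3h2a* passed the filter on low values only through the oocytes, where they are high. Their calls, and the count of lower members that holds them, are given as a description. *Hist1h1a* was higher by 1.06 (SE 0.23, adjusted p = 0.000299), and *Hist1h2aa* by 0.52 (SE 0.18, adjusted p = 0.0178), with overlapping ranges in both cases. The call of *Hist1h2aa* was lost with the spread taken over all 12 groups (adjusted p = 0.204), and that of *Hist3h2ba* without WT oocyte 4 (adjusted p = 0.0545) and under quantile normalization (adjusted p = 0.467).

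In KO samples 3 of 14 members tested were higher and 4 lower in zygotes, beside 31.9% and 32.5% of all genes, and quantile normalization gave 4 and 3. Groups were without overlap for 3 of the 14 and for 37.4% of all genes. *Hist1h2bc* was at 119 to 191 (median 150) in KO oocytes and 15.5 to 29.2 (median 24.9) in KO zygotes, with no overlap and a log2 change of -2.70 (SE 0.15, adjusted p = 2.37e-13). *Hist1h1a* was higher by 1.41 and *Hist1h2aa* by 0.61, and the H2B gene *Hist1h2bj* by 0.89 (adjusted p = 1.05e-05, 0.0223 and 0.00923). *Hist3h2a*, *Hist1h1c* and *Hist1h4i* were lower by log2 changes of -1.71, -1.20 and -0.76. *Hist3h2a* and *Hist1h4i* passed the filter on low values only through the oocytes. *Hist1h1c* passed it mainly through the oocytes and *Hist1h2bj* mainly through the zygotes. The calls of these members are given as a description. The KO call of *Hist1h2aa* was lost in edgeR (adjusted p = 0.0615), without KO oocyte 4 (0.0549), without KO zygote 6 (0.0570) and with the spread of all 12 groups (0.140), and that of *Hist1h4i* was lost with that spread (0.0613) and under quantile normalization (0.237). *Hist3h2a* had 1 read in the 7 KO zygotes and 73 in the 7 KO oocytes.

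From zygote to 2-cell embryo the H2B and H2A transcripts that led in oocytes were lower and some H4 transcripts were higher. In WT, 3 of 11 members tested were higher and 3 lower, beside 36.3% and 38.8% of all genes, and quantile normalization gave 0 higher and 6 lower as the median of all genes went from -0.10 to -0.23. *Hist1h2bc* and *Hist1h2aa* did not overlap between the stages, as was so for 49.4% of all genes, and had log2 changes of -4.42 (SE 0.45, adjusted p = 1.33e-08) and -2.97 (SE 0.38, adjusted p = 3.79e-07). The H2B gene *Hist1h2bk* was at 1.12 to 3.15 (median 1.95) in WT zygotes and 0 to 1.80 (median 0.641) in WT 2-cell embryos, a change of -0.75. All 3 lower members passed the filter on low values only through the zygotes, and *Hist1h4i* passed it mainly through the 2-cell embryos. The counts of this step are therefore given as a description. The higher members *Hist1h4i*, *Hist1h4d* and *Hist1h4c* were all H4 genes, with changes of 1.26, 0.98 and 0.83 (adjusted p = 0.0123, 0.0281 and 0.0323), and all had overlapping ranges. *Hist1h4c* was at 1.99 to 6.11 (median 3.99) in WT zygotes and 3.52 to 19.0 (median 7.69) in WT 2-cell embryos. The calls of *Hist1h4d*, *Hist1h4c* and *Hist1h2bk* were each lost when any of several single libraries was left out, with adjusted p up to 0.0703, 0.0797 and 0.0721. *Hist1h1b* had 3 reads in the 7 WT zygotes and 68 in the 7 WT 2-cell embryos, a ratio of 22.3 (95% exact interval 7.32 to 111, counting error only). Below the filter in this comparison, it had no test.

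In KO samples 5 of 14 members tested were higher and 3 lower in 2-cell embryos (33.1% of all genes in either direction), and quantile normalization gave 3 and 5. Each of the 5 higher members passed the filter on low values only through the 2-cell embryos, and each of the 3 lower ones only through the zygotes. These counts and calls are therefore given as a description. Groups were without overlap for 5 of the 14 and for 33.2% of all genes. Without KO libraries 2 and 7 the counts were 6 and 5 (33.9% and 37% of all genes), and *Hist1h2bc* was lower by a log2 change of -1.73 (SE 0.40, adjusted p = 0.00069), where with all libraries its change was -0.84 (adjusted p = 0.261). *Hist1h1b* had no read in any KO zygote and was at 3.15 to 85.1 (median 8.80) in KO 2-cell embryos, at least 203-fold higher, or 61.2-fold without libraries 2 and 7, against a floor of 3 reads over the group of zygotes. *Hist1h4d* was at 0 to 4.09 in KO zygotes and 5.46 to 73.7 in KO 2-cell embryos (2.87, SE 0.54, adjusted p = 0.000152, and 2.28, adjusted p = 0.000125, without the 2 libraries). *Hist1h1e*, *Hist1h1c* and *Hist1h4i* were higher with and without those libraries, though *Hist1h1c* and *Hist1h4i* were not called under quantile normalization (adjusted p = 0.0546 and 0.234). The other 6 KO embryos still had granulosa and cumulus marker sums of 75.3 to 1182, against 16.7 to 68.7 in WT, and *Hist1h1e* was at 6.75, 8.40 and 8.91 in those with 388, 1182 and 998 (libraries 1, 3 and 4) and at 1.43, 1.19 and 1.61 in libraries 5, 6 and 8 (75.3, 543 and 159). In WT its mean was 1.01 in zygotes and 0.0457 in 2-cell embryos. The part of the surrounding cells in these differences was not tested. *Hist1h4c* was called higher without libraries 2 and 7 but not with them (adjusted p = 0.00245). *Hist1h2aa*, *Hist1h2ba* and *Hist1h2bk* were lower either way, by -2.69, -1.60 and -1.29 with all libraries, and *Hist1h2ac* was called lower without them (-1.06, adjusted p = 0.0265).

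KO and WT were then compared at each stage. In GV oocytes no member was called: 0 of 15 tested passed in limma, 0 had an unadjusted p under 0.05, and edgeR and DESeq2 on the recovered reads also called 0, while 1.44% of all genes were higher and 2.2% lower in KO. None of the 15 had groups without overlap, beside 1.38% of all genes. The median log2 change of the 15 was -0.25 against -0.00 for all genes, and 12 of the 15 were below 0. Of these 12, *Hist3h2ba*, *Hist1h4a*, *Hist1h4h*, *Hist1h4d* and *Hist1h2ac* passed the filter on low values only through the WT oocytes. The median and the tally are therefore given as a description. *Hist1h2bc* was at 117 to 285 (median 193) in WT and 119 to 191 (median 150) in KO oocytes, a log2 change of -0.30 (95% interval -0.64 to 0.03, adjusted p = 0.273), and the KO range lay within the WT range.

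In zygotes *Hist1h2bc* was lower in KO. It was at 48.9 to 83.6 (median 72.3, mean 67.9 ± 12.3, SD, n = 7) in WT zygotes and at 15.5 to 29.2 (median 24.9, mean 23.3 ± 5.00, n = 7) in KO zygotes. Each of the 7 KO zygotes lay below each of the 7 WT zygotes, and 4.32% of all genes were without overlap in either direction. The log2 change was -1.51 (SE 0.17, 95% interval -1.86 to -1.16, adjusted p = 1.29e-06 in limma), which placed it 38th of 11168 genes by p. It was 1 of 12 members tested, and 0 were called higher and 1 lower, where 8.19% of all genes were higher and 6.38% lower. The median log2 change of the 12 members was 0.02, against 0.03 for all genes. *Hist1h4d* and *Hist1h2bk* had an unadjusted p under 0.05 and were not called (-0.96 and 0.67, adjusted p = 0.124 and 0.135). *Hist1h4d* passed the filter on low values only through the WT zygotes, so its difference is given as a description.

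The difference in *Hist1h2bc* between KO and WT was larger in zygotes than in oocytes. The interaction of genotype and stage was -1.21 on the log2 scale (SE 0.23, adjusted p = 0.000754), and it was the 1 call among 19 members, where 6.8% of all genes were called. The H2B share of the summed value was 42.8% to 55.2% (median 48.2%) in WT zygotes and 27.4% to 37.8% (median 30.9%) in KO zygotes. Without *Hist1h2bc*, *Hist1h4d* and *Hist1h1a*, the summed value was 40.1 to 55.3 (median 42.3) in WT and 27.9 to 77.4 (median 38.4) in KO zygotes. The granulosa and cumulus markers summed to 16.7 to 29.0 in WT and 11.7 to 27.3 in KO zygotes, with the same 6 of 8 markers averaging under 1 in both, and the oocyte markers to 14774 to 17452 in WT and 12212 to 16555 in KO.

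**Figure D4:**
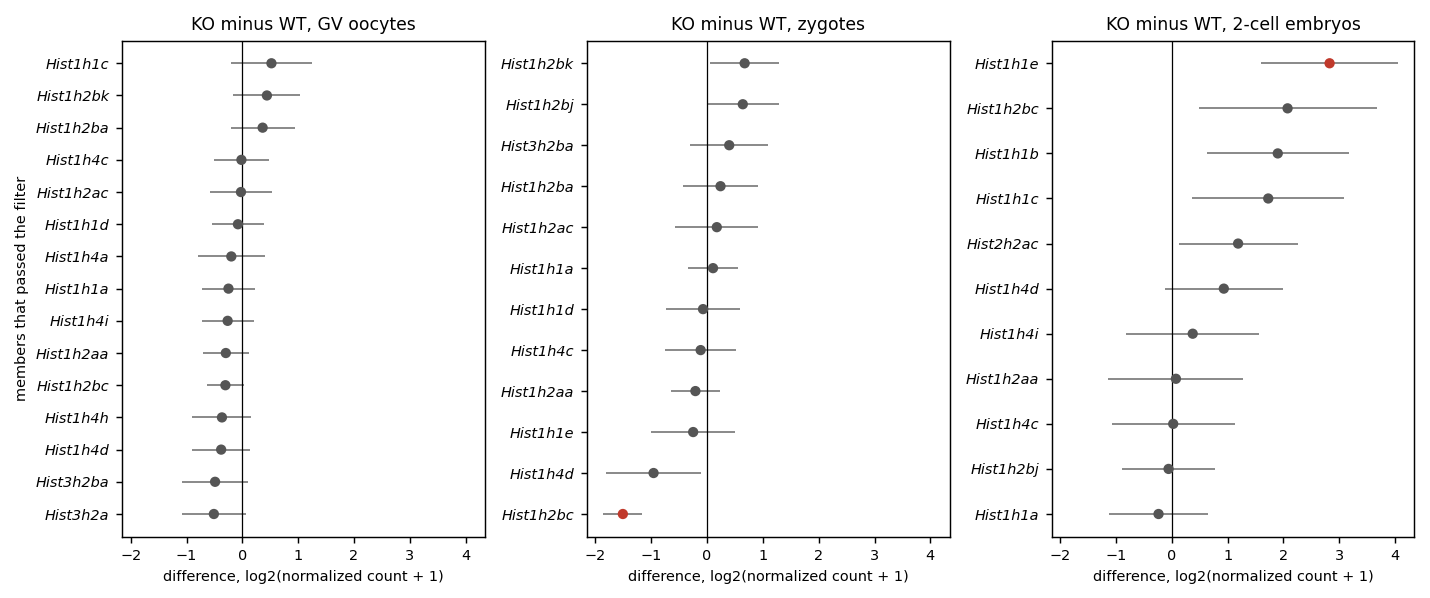
Difference between KO and WT in log2(normalized count + 1) for each member that passed the filter on low values in GV oocytes, zygotes and 2-cell embryos (points, with 95% intervals from limma; red marks an adjusted p under 0.05). *Hist1h2bc* at -1.51 in zygotes and *Hist1h1e* at 2.83 in 2-cell embryos are the marked members.

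In 2-cell embryos the H1 gene *Hist1h1e* was nearly absent in WT and present in every KO library. It had 1 read in the 7 WT embryos, so that 6 WT libraries were at 0 and 1 at 0.32, and it was at 1.19 to 51.6 (median 7.57) in the 8 KO embryos, with no overlap (0.564% of all genes). It passed the filter on low values only through the KO group and so had to be higher there to be tested, and its call is given as a description. Over the group it had 327 reads in KO, a ratio of 272 (95% exact interval 48.4 to 10762, counting error only), or 93 reads and a ratio of 106 (18.5 to 4225) without libraries 2 and 7. The log2 change was 2.83 (SE 0.59, adjusted p = 0.0269), and 2.16 (SE 0.48, adjusted p = 0.0336) without those libraries. The other 10 of the 11 members tested were not called, with 0.7% of all genes higher and 0.00795% lower, or 0.615% and 0.0319% without the 2 libraries. The call was lost when any single WT library or KO library 2, 3 or 4 was left out (adjusted p 0.0556 to 0.0718).

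The other members above 0 in KO 2-cell embryos were not called in limma. *Hist1h1b* was at 0.959 to 7.97 (median 2.52) in WT and 3.15 to 85.1 (median 8.80) in KO embryos (1.90, SE 0.61, adjusted p = 0.159, and 1.11, adjusted p = 0.430, without KO libraries 2 and 7). *Hist1h2bc* was at 0 to 10.9 (median 1.28) in WT and 1.72 to 84.7 (median 9.61) in KO (2.07, SE 0.77, adjusted p = 0.218, and 1.18, adjusted p = 0.563, without them), with overlap in both genes. *Hist1h1c* (1.73) and *Hist2h2ac* also had an unadjusted p under 0.05 with all libraries, and *Hist1h1c* was at 0.97 (unadjusted p = 0.0690) without libraries 2 and 7. The median log2 change over the 11 members tested was 0.93 against -0.06 for all genes, and 0.42 against -0.00 without those libraries. With all libraries, *Hist1h1b*, *Hist1h2bc*, *Hist1h1c* and *Hist1h4i*, like *Hist1h1e*, passed the filter on low values only through the KO embryos. *Hist2h2ac* passed it mainly through them. The filter thus favoured members high in KO, so these medians, the unadjusted p-values above and the counts of called members below are given as a description. DESeq2 called 4 members and 7.29% of all genes, and edgeR called 1 member and 2.08% of all genes.

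The members that were high in KO 2-cell embryos were highest in the libraries with the highest granulosa and cumulus markers. In KO library 7 (marker sum 13070) *Hist1h1e* was at 51.6, *Hist1h1c* at 61.5, *Hist1h1b* at 85.1, *Hist1h2bc* at 83.7 and *Hist1h4d* at 73.7. In KO library 2 (marker sum 6492) they were at 15.7, 13.0, 56.9, 84.7 and 58.5. In KO library 5, with the lowest marker sum of the KO embryos (75.3), they were at 1.43, 0.572, 3.15, 1.72 and 7.15. *Hist1h1a* went the other way and was lowest of the 15 embryos in libraries 2 (11.9) and 7 (6.41). The part of the surrounding cells in the KO values of these members was not tested.

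**Figure D5:**
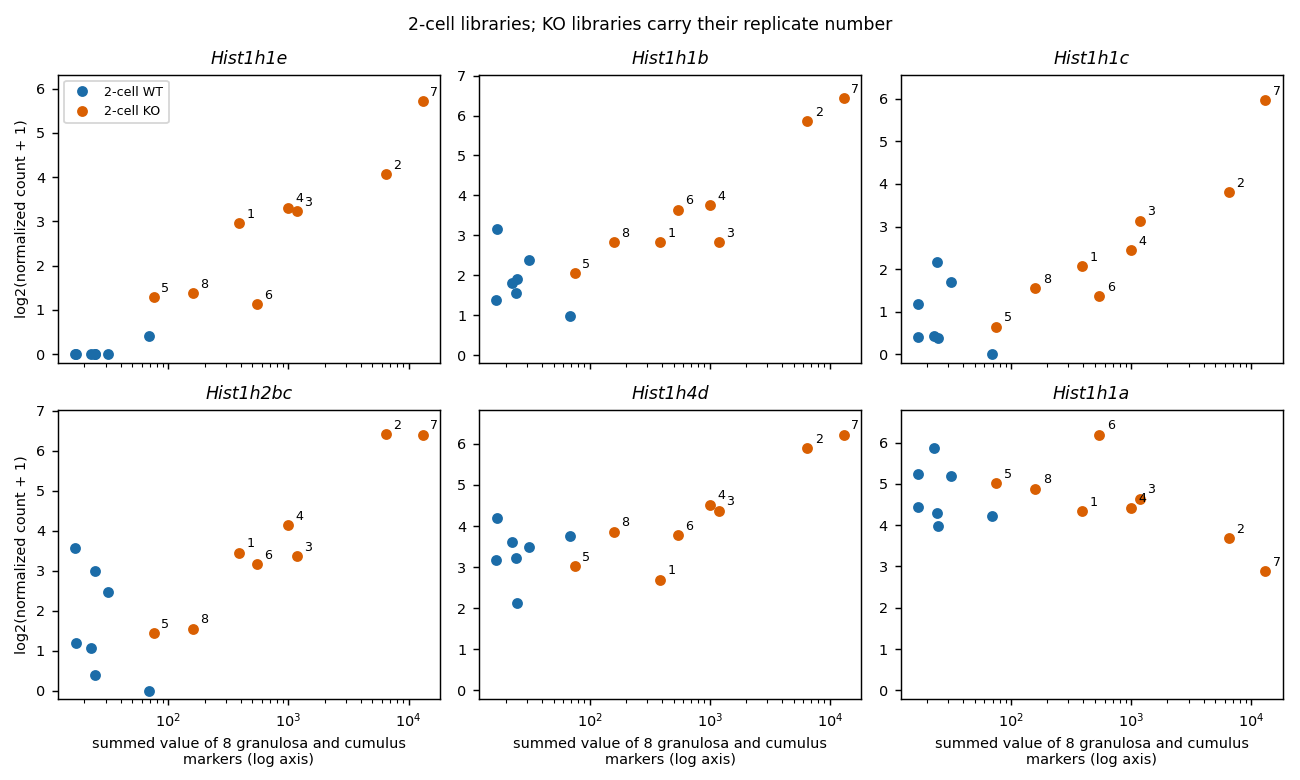
log2(normalized count + 1) of 6 members in each 2-cell library (blue WT, orange KO with the replicate number) against the summed value of 8 granulosa and cumulus markers (log axis). KO libraries 2 and 7, at 6492 and 13070, are highest in 5 of the 6 panels and lowest in that of *Hist1h1a*.

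The KO difference at the 2-cell stage also departed from that in zygotes. *Hist1h2bc* had an interaction of 3.58 (SE 0.83, adjusted p = 0.0205) and *Hist1h1e* one of 3.08 (SE 0.69, adjusted p = 0.0155), the 2 calls among 18 members, where 1.44% of all genes were called. Without KO libraries 2 and 7 the values were 2.69 (adjusted p = 0.0154) and 2.41 (adjusted p = 0.0117), the 2 calls among 17 members, with 1.38% of all genes called. The KO embryos left still had granulosa and cumulus marker sums of 75.3 to 1182. *Hist1h2bc* was at 9.96, 9.27 and 16.6 in libraries 1, 3 and 4 (sums 388, 1182 and 998). In libraries 5, 6 and 8 it was at 1.72, 7.92 and 1.93 (75.3, 543 and 159). The part of the surrounding cells in these interactions was not tested.

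In blastocysts, where the members were most numerous, 0 of 22 tested were called by limma, edgeR or DESeq2, with 0.00885% of all genes higher and 0% lower, and 1 member had an unadjusted p under 0.05. That member was *Hist1h2bc*, at 13.0, 14.3 and 14.3 in WT and 11.5, 8.92 and 7.78 in KO pools, without overlap (-0.53, SE 0.17, unadjusted p = 0.0162, adjusted p = 1). Groups were without overlap for 2 of the 22 members and for 5.95% of all genes. The other such member, *Hist3h2a*, was at 2.18, 2.96 and 2.84 in WT and 1.96, 1.51 and 1.54 in KO (-0.45, adjusted p = 1). *Hist1h4d* was at 111, 30.9 and 82.6 in WT and 94.3, 69.5 and 37.7 in KO pools (-0.06, 95% interval -1.19 to 1.06). *Hist1h2ae* was at 57.4, 36.1 and 53.6 in WT and 56.1, 67.9 and 29.0 in KO (-0.00, interval -0.72 to 0.72). WT pool 2 and KO pool 3 were the lowest of their groups for *Hist1h4d*, *Hist1h2ae* and *Hist1h1e*.

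In blastocyst-derived mESCs 0 of 5 members tested were called by limma, edgeR or DESeq2 and 0 had an unadjusted p under 0.05, where 8.26% of all genes were higher and 5.6% lower in KO. *Hist1h1a* was the 1 member of the 5 without overlap, beside 39.3% of all genes, at 1.32, 1.28 and 1.10 in WT and 0.814, 0.962 and 0.397 in KO (-0.39, SE 0.17, adjusted p = 0.178). *Hist1h2bc* was at 1.47, 0.856 and 0.604 in WT and 1.90, 1.24 and 1.85 in KO, with overlap (0.44, adjusted p = 0.198). *Hist1h1a* passed the filter on low values only through the WT libraries and *Hist1h2bc* only through the KO libraries. Their differences are therefore given as a description. The other 45 members were below the filter on low values.

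In OE cells 3 of the 4 members tested were higher and 0 lower, beside 21.9% and 28.1% of all genes. The split over all genes turned to 3503 higher and 2971 lower under quantile normalization, from 2680 and 3441. *Hist1h1c*, which encodes an H1 subtype found in most cells, was at 1.96, 1.76 and 2.09 in control and 4.65, 3.90 and 4.28 in OE libraries (0.84, SE 0.11, adjusted p = 0.000187). *Hist1h2bc* was at 1.59, 1.09 and 1.16 in control and 2.61, 3.32 and 1.82 in OE (0.64, SE 0.17, adjusted p = 0.0104). *Hist2h2be*, an H2B gene on chromosome 3, was at 1.01, 0.673 and 0.581 in control and 1.28, 1.75 and 1.76 in OE (0.57, SE 0.15, adjusted p = 0.0088). *Hist2h2be* passed the filter on low values only through the OE libraries, so its call, 1 of the 3, is given as a description. The 3 were without overlap, as were 59.1% of all genes. *Hist3h2ba* was at 1.38, 0.932 and 1.34 in control and 1.39, 0.991 and 0.817 in OE (-0.10, adjusted p = 0.599). The 3 control libraries differed by hardly more than counting error (mean chi-square per gene 1.08 to 1.13, where counting error alone gives 1). Averaging such near-identical libraries left 1 control and 2 OE samples, with the spread taken from the mESC and E14 groups together, which allows few calls (235 of all genes in place of 6121). The log2 differences were then 0.85, 0.55 and 0.59 in the order above, and none was called (adjusted p = 0.240, 0.427 and 0.230). With the spread taken over all 12 groups, 210 genes and none of the members were called.

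The machinery that makes, ends and handles histone mRNA was described from lists of other genes, beside the shares of all genes given above. Of 19 tested genes of histone gene transcription and mRNA 3′ end processing, 2 were higher and 1 lower in KO zygotes. *Slbp*, which encodes the stem-loop binding protein, was at 1181 to 2347 in WT and 1730 to 3235 in KO zygotes (0.47, SE 0.15, adjusted p = 0.0375), with overlap. *Lsm10*, a subunit of the U7 particle that directs histone mRNA cleavage, had a mean of 27.0 ± 8.02 (SD, n = 7) in WT and 72.1 ± 35.5 (n = 7) in KO zygotes (1.31, SE 0.23, adjusted p = 0.000326). *Upf1*, a helicase used in histone mRNA decay, was lower (-0.94, SE 0.15, adjusted p = 0.000148). The median change of the list was 0.06, against 0.03 for all genes. In GV oocytes, 2-cell embryos and blastocysts none of the 19 was called, in mESCs *Ncbp2* and *Hinfp* were higher and *Ncbp1* and *Sympk* lower in KO, and in OE cells 5 were higher, among them *Slbp* by 0.18, and 5 lower.

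Between WT stages *Slbp* rose from a mean of 951 in WT oocytes to 1690 in WT zygotes (0.81, SE 0.16, adjusted p = 0.000129) and fell to 402 in WT 2-cell embryos (-2.07, SE 0.18, adjusted p = 1.67e-09). *Npat*, a coactivator of histone gene transcription, rose at both steps (0.84 and 1.92, adjusted p = 0.000529 and 1.15e-09). In all, 11 of the 19 genes were higher and 5 lower in WT zygotes than in WT oocytes, and 6 were higher and 9 lower in WT 2-cell embryos than in WT zygotes.

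Polyadenylated histone genes outside the clusters gave 2 lower and 0 higher of 9 tested in KO zygotes. *H1foo*, the oocyte linker histone gene, was at 8119 to 9435 in WT and 3136 to 6022 in KO zygotes without overlap (-0.98, SE 0.13, adjusted p = 9.29e-06), and *H2afx*, which encodes H2AX, was at 16.2 to 38.1 and 7.92 to 18.8 (-0.83, adjusted p = 0.0142). Of 9 chaperones of newly made H3-H4, *Chaf1b* was higher and *Chaf1a* lower in KO zygotes, both subunits of chromatin assembly factor 1 (0.81 and -0.40). Of 14 S phase genes, *Mcm4* was higher in KO oocytes, *Mcm5* in KO zygotes and *Mcm7* and *Mcm4* in KO mESCs, with none lower. In OE cells 9 of the 14 were higher and 0 lower, with *Prim1* (primase) at 0.38, *Cdc45* at 0.36 and *Pcna* (the replication clamp) at 0.33, 3 of 9 polyadenylated histone genes were higher (*H2afz*, *H2afx* and *H3f3a*) and *H2afj* lower, and of the chaperones *Hat1* and *Asf1b* were higher. None of the OE calls of these lists, or of the processing list, was kept with near-identical libraries averaged or with the spread of all 12 groups. No gene of these 3 lists was called by limma in KO 2-cell embryos or KO blastocysts.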

How the data were processed

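The deposited signal values are gene-level read counts that the authors normalized: reads were aligned to mm9 with STAR 2.4.2a, counted per Ensembl gene with HTSeq and divided by DESeq2 size factors over all libraries. Every deposited value was a whole multiple of what 1 read is worth, within a tolerance of 0.01, in 100% of values, so reads were recovered. Of 18504 rows, 108 repeats were dropped and 26 symbols that had become dates were restored, and 0 sample columns were left unused. Samples were grouped by their labels. The members and the gene lists were chosen with earlier results of these data known.

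Each comparison used its own libraries. log2(value + 1) was fitted in limma 3.58.1 (trended, robust, two-sided) and genes entered where libraries at a value of 1 or more were no fewer than the smaller group, with Benjamini-Hochberg adjustment at 0.05. edgeR 4.0.16 and DESeq2 1.42.0 were run on the recovered reads as alternatives, beside pseudocounts of 0.1 and 5, no filter or a filter at 10, other scalings, the spread of the 12 groups together, a block for replicate number, averaged near-identical libraries and each library left out. Interactions, the fits without KO 2-cell libraries 2 and 7 and the other settings for the gene lists were chosen after seeing the data. Named members were, by rule, those called in a comparison, the 3 highest of each kind of sample and the highest per kilobase of each class. Others that are named (*Hist2h2ac* and the members not called but singled out) were chosen after their values were seen. The same holds for the comparisons in which *Hist1h1b* and *Hist3h2a* are described without a call. Sequences and exons came from mm9 and GENCODE vM1. Nextera libraries do not mark strand, so *Hist1h4b* and *Hist2h2ab* cannot be told apart from the genes they overlap on the other strand. The scripts were tested on simulated data. Intervals of read ratios and floors cover counting error only. R 4.3.3 and Python 3.11.15 were used.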

Additional observations from a re-analysis of the deposited data

Results flagged for a closer look

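Single libraries stood far from the rest of their group for 9 of 77 combinations of member and group tested (groups of 7 or 8 libraries with a mean of at least 1), where chance flags about 1 in 20 groups. In KO 2-cell library 7, *Hist1h1c* was at 61.5 (group median 3.83), *Hist1h1e* at 51.6 (7.57) and *Hist1h2ae* at 31.5 (0.865), and in KO 2-cell library 2 *Hist2h2be* was at 15.7 (0.975). These are the libraries with the highest granulosa and cumulus markers (13070 and 6492), whose part in these values was not tested. In KO 2-cell library 6, where the 2-cell markers were highest (654), *Hist1h1a* was at 72.1 (22.3) and *Hist1h4c* at 33.3 (8.45). In WT 2-cell library 4, with the highest 2-cell markers of the WT embryos (426), *Hist1h4c* was at 19.0 (7.69). In WT oocyte 6, *Hist1h1a* was at 28.6 (14.7) and *Hist1h4i* at 5.88 (3.04).

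The difference between KO and WT itself differed between stages, by the interaction test, for *Hist1h2bc* between oocytes and zygotes (-1.21, adjusted p = 0.000754) and between zygotes and 2-cell embryos (3.58, adjusted p = 0.0205), and for *Hist1h1e* between zygotes and 2-cell embryos (3.08, adjusted p = 0.0155). Consecutive stages share the zygote libraries. The part of the surrounding cells in the interactions with 2-cell embryos was not tested.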

How the results depend on the processing

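Over the 34 named pairs of member and comparison, 736 of 789 alternatives kept the call, 53 lost it and 0 reversed its direction. In all, 20 pairs kept it under every alternative run, among them *Hist1h2bc* in KO against WT zygotes. Many of the 34 pairs are given above as a description, since the member passed the filter only or mainly through the group where it is high. For those pairs the filter largely fixed the direction, so kept calls and the absence of reversals do not test it. *Hist1h2bc* passed the filter in WT and in KO zygotes alike. For KO against WT 2-cell embryos (1 member called), a pseudocount of 5 gave 0, a filter at 10 gave 0, DESeq2 gave 4 (7.29% of all genes) and the spread of all 12 groups gave 5 (28.8% of all genes). For OE cells (3 called), no filter gave 6, and a filter at 10, the spread of all 12 groups and averaged near-identical libraries (1 control and 2 OE samples left) gave 0. With a filter at 10, which left few members to test, the counts between stages were 3 and 3 (WT and KO oocytes to zygotes, 8 and 7 called) and 2 and 1 (WT and KO zygotes to 2-cell embryos, 6 and 8 called), and with no filter 13 and 17 for the latter pair. Leaving out each library in turn gave 0 to 0 members in KO against WT oocytes, 1 to 1 in zygotes, 0 to 1 in 2-cell embryos, 0 to 0 in blastocysts and in mESCs, 3 to 3 in OE cells, 7 to 9 from oocyte to zygote in WT and in KO, 5 to 9 from zygote to 2-cell embryo in WT and 8 to 10 in KO. Over all genes, calls went from 89 to 917 in KO against WT 2-cell embryos with DESeq2. The replicate numbers were not taken as pairs: correlations of same-numbered deviations ran from -0.602 to 0.299, with no comparison in which every pair was above 0.1. In blastocysts and in mESCs 2 of 3 pairs of KO and WT were above 0.1, and with so few pairs this check cannot exclude pairing. The replicate block gave 4 members in place of 6 between WT zygotes and 2-cell embryos and 7 in place of 8 in KO, with the other counts the same. Members with fewer reads than the filter asks for were not tested, and nothing can be said of their changes at this depth.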
